A study of Mus musculus with 11 samples.

Results

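Cytosolic ribosomal protein genes were followed in RNA-seq of mouse type 2 innate lymphoid cells (ILC2s). They were chosen by name: protein-coding genes whose symbol begins with Rpl or Rps and a digit, plus Rplp0, Rplp1, Rplp2 and Rpsa, without the S6 kinases, Rps19bp1 and pseudogenes. This gave 88 of the 27179 genes in the count table. Of these, 77 are the core genes, which encode the standard proteins of the ribosome (43 of the 60S subunit, 31 of the 40S subunit and 3 of the P stalk), 8 are paralogs with a trailing l or l1 in the name, and 3 are retrogene copies (Rpl37rt, Rps27rt and Rps23rg1). The members lie on 19 chromosomes, with 14 of them on chromosome 7.

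The cells came from large intestines of wild-type C57BL/6 mice, were purified by sorting and were cultured for 3 h. Every culture, vehicle included, also contained IL-7 and IL-2 (100 ng/ml of either). The groups were IL-25 (100 ng/ml) plus ADM2 (0.4 µg/ml) with 2 libraries, IL-25 alone with 3, ADM2 alone with 3, and vehicle with 3. ADM2 (adrenomedullin 2) is a peptide related to CGRP, and IL-25 is an epithelial cytokine that activates ILC2s. The groups ask what each does alone and together, in cells already given IL-7 and IL-2. The labels do not say whether the libraries of a group came from separate mice or cultures, so the p-values reflect only how much these libraries vary, which may be technical.

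A ribosome holds one copy of nearly every ribosomal protein, and cells coordinate the making of these proteins with that of ribosomal RNA. In mammals the mRNAs of ribosomal proteins begin with a C followed by a run of pyrimidines, the 5′ terminal oligopyrimidine (TOP) motif, through which mTORC1 and LARP1 control how much of the mRNA is translated and stored. Activated lymphocytes are known to enlarge and to build ribosomes, with MYC as a driver of the genes that assemble them.

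The start regions of 4 core genes with such a start and of 3 paralogs are shown here, because the motif is what these genes are known for and the results below turn on these paralogs. They were picked as examples, and both classes hold genes with and without the motif. A RefSeq promoter (assembly GRCm38.p6, from 250 bases before the start to 50 after it) was found for 68 of the 88 members. Windows of 40 bases, 20 on each side of the listed start, are printed 5′ to 3′ on the gene's strand, with the longest unbroken run of C and T in capitals. They come from chr4:86857348-86857387 on the minus strand for Rps6, chr2:39005112-39005151 on the minus strand for Rpl35, chr14:18270967-18271006 on the minus strand for Rpl15, chr3:90213629-90213668 on the minus strand for Rps27, chr9:66946066-66946105 on the plus strand for Rps27l, chr3:28805488-28805527 on the plus strand for Rpl22l1, and chr17:46782637-46782676 on the minus strand for Rpl7l1.
Rps6: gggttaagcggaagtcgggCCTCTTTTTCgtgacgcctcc
Rpl35: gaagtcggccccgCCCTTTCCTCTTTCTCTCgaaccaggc
Rpl15: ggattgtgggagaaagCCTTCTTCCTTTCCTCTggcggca
Rps27: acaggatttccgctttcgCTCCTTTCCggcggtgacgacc
Rps27l: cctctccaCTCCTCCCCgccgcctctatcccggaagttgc
Rpl22l1: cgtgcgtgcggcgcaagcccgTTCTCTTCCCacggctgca
Rpl7l1: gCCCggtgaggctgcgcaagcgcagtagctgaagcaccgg

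In the first 4 windows a run of 9 to 18 pyrimidines spans the listed start. In this window of Rps27l the run of 9 lies before the start, in Rpl22l1 the run of 10 lies after it, and in Rpl7l1 no run exceeds 3. Over the 68 members, 15 (22.1%) had a C at the start followed by at least 4 C or T, against 467 of all 17492 genes with a promoter (2.67%). A run of 8 or more C or T that begins with C lay within 20 bases of the start in 32 members (47.1%), against 14.9% of all genes. CCGGAA, the core of the site of ETS factors, was present on either strand of the whole promoter in 36 members (52.9%), against 20.9% of all genes. CACGTG, the E-box that MYC can bind, was present in 6 members (8.82%), against 8.91% of all genes. These are matches of letters around listed starts, which can lie some bases from the start a cell uses.

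Ribosomal protein genes were among the most abundant transcripts, and 78 of the 88 had a mean above 100 CPM. CPM is a read count relative to the size of its library, after scaling that size by edgeR's TMM factor. Per length of transcript, the median of the 77 core genes was 905 CPM per kb over all libraries, and 67 of them lay within 2-fold of it. The length was that of the gene's protein-coding transcript with the longest coding sequence. It can be far longer than the coding part, as in Rpl7l1 with 2606 bases, 738 of them coding. Levels per kb depend on that choice. Rplp1 stood highest with 5842 CPM per kb. Rplp1 encodes an acidic protein of the stalk, which recruits elongation factors to the ribosome. Rpl8, of the large subunit, followed with 2289 CPM per kb, and Rplp0, the base of the stalk, with 1979 CPM per kb.

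**Figure D1:**
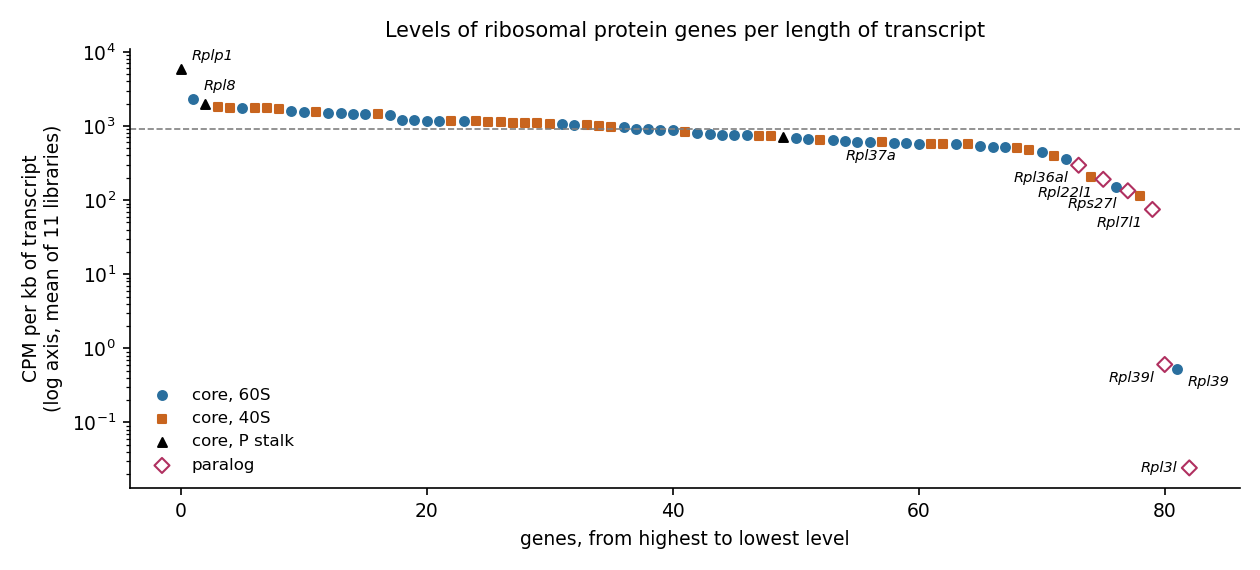
Mean level over the 11 libraries, in CPM per kb of transcript on a log axis, for 83 standard and paralog genes in order of level; the dashed line is the median of the 77 core genes. Most genes lie near 905 CPM per kb, Rplp1 stands above them at 5842, and Rpl39 lies below 1.

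At the other end, Rpl39 held only 6 to 16 counts per library, although its protein is part of the standard ribosome. Ribosomal protein genes have many processed copies in the genome, and the counting of reads that match several copies is not given in the sources used here. A low count is therefore not shown to be a low level. The paralogs were low as well: per kb of transcript, Rpl36al had 296 CPM, Rpl22l1 191 CPM, Rps27l 134 CPM and Rpl7l1 74.9 CPM. Rpl10l, known for its role in the testis, had 0 counts in every library, and Rpl3l, the form of heart and skeletal muscle, had 2 counts in ADM2 replicate 1, 10 in IL-25 replicate 3 and 0 elsewhere. Rpl39l held 0 to 46 counts, Rpl32l 12 to 34, Rps23rg1 17 to 38, Rps27rt 21 to 64 and Rpl37rt 452 to 716. Rpl10l and Rpl3l did not pass the filter on low counts, so 86 members were tested among 15028 genes.

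Together the 88 genes made up 5.97% and 7.22% of all counts in the IL-25 plus ADM2 libraries 2 and 3. The share was 7.13%, 5.55% and 6.22% in IL-25 libraries 1, 2 and 3, 7.07%, 6.02% and 6.27% in ADM2 libraries 1, 2 and 3, and 5.51%, 6.90% and 5.56% in vehicle libraries 1, 2 and 3. The 4 groups overlapped on this measure. Their means were 6.59% ± 0.89 with IL-25 plus ADM2 (SD, n = 2), 6.30% ± 0.79 with IL-25 (SD, n = 3), 6.45% ± 0.55 with ADM2 (SD, n = 3) and 5.99% ± 0.79 with vehicle (SD, n = 3). In bulk RNA, fewer cells of a type and less RNA per cell cannot be told apart.

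**Figure D2:**
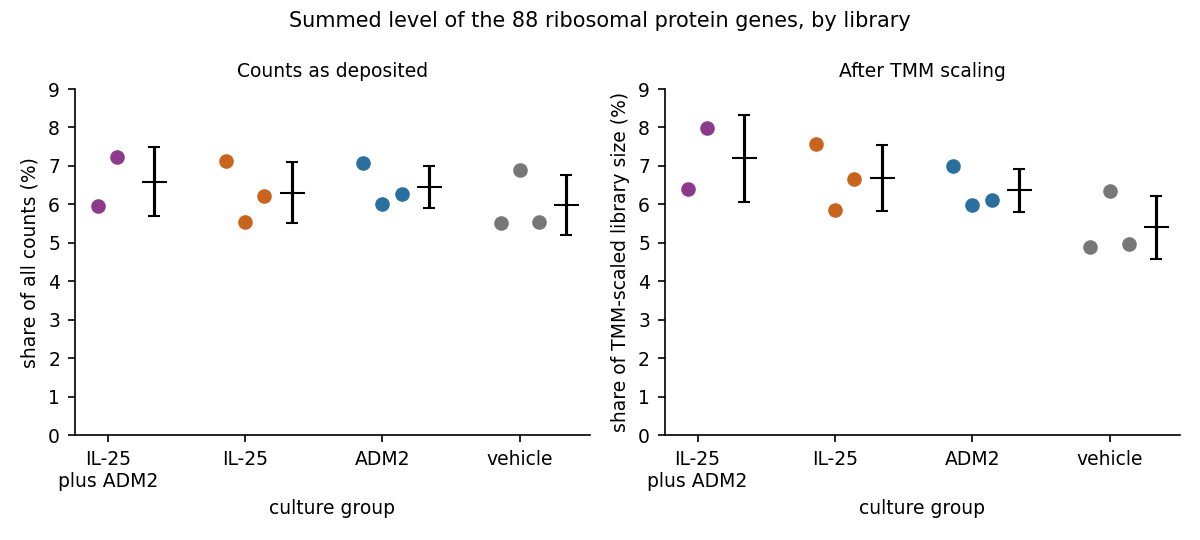
Summed level of the 88 genes in each library, as percent of all counts (left) and of the TMM-scaled library size (right); points are libraries and bars are the group mean ± SD. On the left the groups overlap between 5.51% and 7.22%, and on the right the IL-25 plus ADM2 libraries lie at 6.40% and 7.99% and the vehicle libraries at 4.90% to 6.35%.

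Total counts were 25809256 to 35445351 per library, and TMM factors fell into narrow ranges by group: 0.904 to 0.933 with both agents, 0.935 to 0.947 with IL-25, 1.01 to 1.02 with ADM2 and 1.09 to 1.12 with vehicle. All 11 ILC2 markers were detected in the libraries, and their summed level was 23400 to 25500 CPM with both agents, 15100 to 16800 with IL-25, 7320 to 7360 with ADM2 and 5620 to 5950 with vehicle. Within this list, Il5 ranged from 495 to 14900 CPM over the libraries, Il2ra from 945 to 5640 and Il13 from 135 to 3080. Gata3, the highest of the rest, ranged from 710 to 1370 CPM. Among 9 marker lists, those of T cells (6 of 6 genes found, 7.60 to 12.9 CPM), B cells (4 of 4, 7.32 to 20.9 CPM), NK cells and ILC1s (5 of 5, 19.6 to 25.4 CPM), myeloid cells (5 of 5, 2.57 to 7.84 CPM) and mast cells (4 of 4, 0 to 0.903 CPM, Mcpt2 at 0 throughout) stayed low. The 5 stroma and vessel markers, mostly Pecam1 (89.5 to 347 CPM over all libraries), summed to 312 to 358 CPM with both agents and 336 to 426 CPM with IL-25, against 139 to 174 with ADM2 and 172 to 189 with vehicle. The 4 ILC3 markers, mostly Il22, summed to 1250 to 1490 CPM with both agents and 1150 to 1330 with IL-25, against 395 to 438 with ADM2 and 205 to 274 with vehicle. The 5 epithelial markers, mostly Epcam, were at 65.6 to 88.5 CPM with both agents and 80.7 to 86.8 with ADM2, against 142 to 169 with IL-25 and 157 to 186 with vehicle. The part of these in the results below was not tested.

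The standard genes of a library moved together, and the libraries of a group differed from each other in this. Measured as log2 CPM minus the group mean, the median of the 77 genes was -0.16 and +0.16 in libraries 2 and 3 with both agents, +0.19, -0.18 and 0.00 in libraries 1, 2 and 3 with IL-25, and +0.13, -0.08 and -0.06 in those with ADM2. With vehicle it was -0.13, +0.24 and -0.12, and 76 of the 77 genes lay above the group mean in vehicle library 2, whereas 2 did in library 1 and 0 in library 3. The median SD of a standard gene between libraries of a group was 0.19 on the log2 scale, and 0.0485 once each library's median over the 77 genes was subtracted. For 67 of the 77 genes this second SD was below 0.1. Within a library, then, the genes kept their proportions to each other more closely than their common level was kept from library to library.

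Short genes that are not members followed a similar course. The members themselves are not all short: Rpl4 has 1257 coding bases and Rpl3 1209. For 592 protein-coding genes that are not members, with up to 600 coding bases and a mean of at least 32 CPM, the median deviation was -0.11 and +0.11 in the IL-25 plus ADM2 libraries 2 and 3, +0.08, -0.09 and +0.02 in IL-25 libraries 1, 2 and 3, +0.09, -0.07 and -0.01 in ADM2 libraries 1, 2 and 3, and -0.10, +0.18 and -0.07 in vehicle libraries 1, 2 and 3. For 4872 longer genes at that level it was between -0.03 and +0.03 in every library. The short genes stood on the same side of their group mean as the ribosomal protein genes in the libraries that deviated most, and by less. The part of coding length in the comparisons below was not tested.

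**Figure D3:**
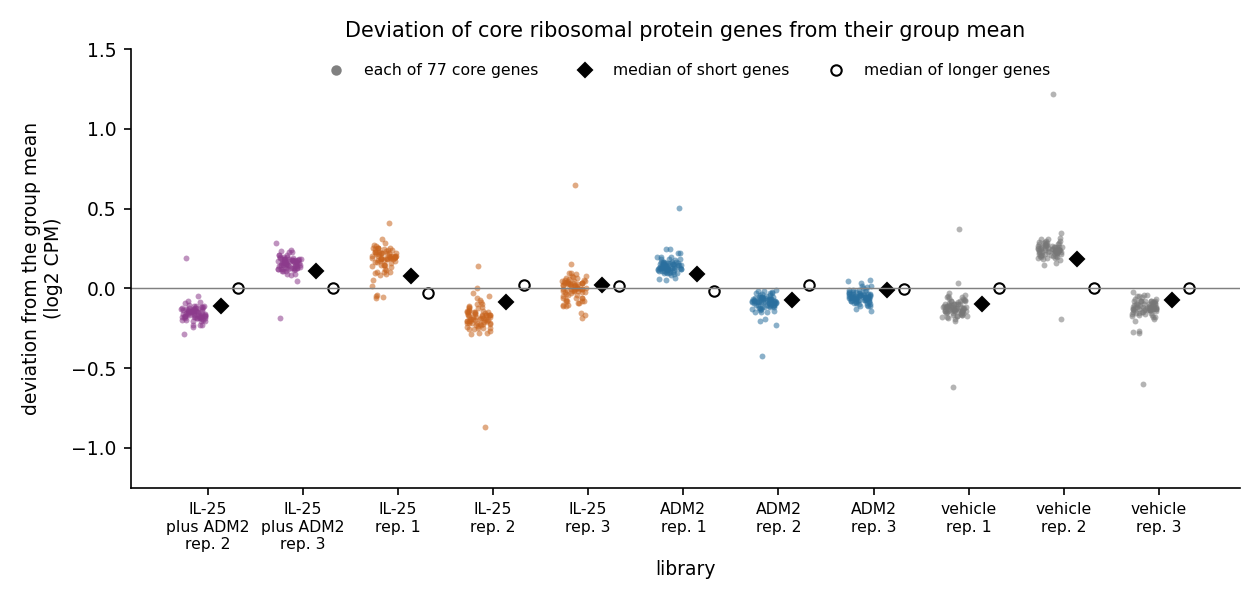
Deviation of each of 77 core ribosomal protein genes from the mean of its group (log2 CPM) in the 11 libraries, beside the median of 592 short and 4872 longer genes that are not members. Nearly all genes of vehicle library 2 lie above 0 around a median of +0.24, those of IL-25 library 2 lie below it around -0.18, and the point farthest from the rest, in vehicle library 2, is Rpl37a.

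IL-25 against vehicle asks how activation by this cytokine moves the genes. With IL-25, 21 of the 86 tested members were higher and 0 lower at an adjusted p below 0.05 (edgeR's quasi-likelihood test with Benjamini-Hochberg adjustment over all genes). This is 24.4% of the members, against 23.3% of all genes called in either direction, 13% called higher and 10.4% called lower. At an unadjusted p below 0.05 there were 51 members, against 33.9% of all genes. The changes were small: the median log2 fold change was 0.31 over the members and 0.00 over all genes, 83 of the 86 values were above 0, and no called member reached 2-fold. Of the standard genes, 12 of the 43 for the 60S subunit (median 0.32), 7 of the 31 for the 40S subunit (median 0.29) and 0 of the 3 for the stalk (median 0.07) rose. In 12 members the IL-25 libraries lay wholly above the vehicle libraries, which is 14% of members, against 18.9% of all genes.

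Among the called members the 2 largest increases were in paralogs. Rps27l (Entrez Gene 67941, GRCm38.p6 chr9:66944624-66949522) is the paralog of Rps27 of the small subunit and had 112, 96.6 and 111 CPM with IL-25, against 55.2, 78.5 and 62.3 CPM with vehicle. Rpl7l1 (Entrez Gene 66229, chr17:46773907-46782656), whose human counterpart is found in precursors of the large subunit, had 274, 259 and 272 CPM with IL-25, against 158, 185 and 162 CPM with vehicle. In both genes the groups did not overlap. The log2 fold change was 0.70 ± 0.13 (SE, adjusted p = 0.00108, edgeR) for Rps27l and 0.67 ± 0.09 (SE, adjusted p = 0.000105, edgeR) for Rpl7l1. Rps27l kept its call in all 22 alternative settings, with adjusted p from 2.66e-06 to 0.0364. The adjusted p of Rpl7l1 ran from 2.36e-11 to 0.0534, the last when library factors came from the members themselves.

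Among called core genes the largest increase was that of Rpl35, a protein at the exit of the nascent chain tunnel. It had 665, 519 and 626 CPM with IL-25, against 392, 488 and 370 CPM with vehicle, and the groups did not overlap (log2 fold change 0.53 ± 0.12, SE, adjusted p = 0.00488, edgeR). Rpl10a, of the L1 stalk, had 878, 760 and 845 CPM with IL-25, against 584, 688 and 584 CPM with vehicle, again with no overlap (0.42 ± 0.10, SE, adjusted p = 0.00535, edgeR). Rps18, at the head of the small subunit, had 1305, 944 and 1136 CPM with IL-25, against 745, 1017 and 746 CPM with vehicle, where vehicle library 2 lay above IL-25 library 2. Its log2 fold change was 0.43 ± 0.15 (SE, adjusted p = 0.0459, edgeR). Rps26, Rps25, Rpl15 and Rpl7a were also among the 10 largest increases, with log2 fold changes of 0.42, 0.41, 0.41 and 0.40. Rpl4 and Rpl5, of which Rpl5 binds 5S rRNA together with Rpl11, were also called (0.40 and 0.36, adjusted p = 0.00754 and 0.0404, edgeR). Rpl11 was not, at 0.35 ± 0.13 (SE, adjusted p = 0.069, edgeR), nor were Rps6, the substrate of the S6 kinases, at 0.31 ± 0.12 (adjusted p = 0.0644), Rpsa, the laminin receptor precursor, at 0.33 (adjusted p = 0.084), Rpl8 at 0.31 (adjusted p = 0.107) and Rps4x at 0.14 (adjusted p = 0.511).

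The stalk genes Rplp1 and Rplp2 were among the members with the smallest fold changes. Rplp1 had 3027, 2190 and 2365 CPM with IL-25, against 2247, 2943 and 2249 CPM with vehicle, and the groups overlapped fully (0.03 ± 0.14, SE, adjusted p = 0.926, edgeR). Rplp2, its partner in the stalk, had 631, 659 and 681 CPM with IL-25, against 598, 726 and 550 CPM with vehicle (0.07 ± 0.12, adjusted p = 0.74), and Rplp0 stood at 0.26 ± 0.11 (adjusted p = 0.0972).

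The number of members called with IL-25 rested on single libraries. Without vehicle library 2 it was 56 and without IL-25 library 2 it was 42. It was 4 without vehicle library 1, 3 without vehicle library 3, 5 without IL-25 library 1, 8 without IL-25 library 3 and 7 without ADM2 library 3. Of all genes, 22.3%, 22.2%, 16.9%, 17.1%, 20.8%, 18.9% and 21.8% were called in either direction in these fits, in that order. The members' median ran from 0.20 without IL-25 library 1 to 0.41 without vehicle library 2. With total counts in place of TMM factors the count was 2, against 27.2% of all genes called in either direction. The median over all genes then lay at -0.23. The members' own median was then 0.08, and they stood 0.31 above the median of all genes under both scalings. Short genes that are not members had a median of 0.19 in this comparison and longer genes 0.10.

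ADM2 against vehicle asks what the peptide does without IL-25. At an adjusted p below 0.05, 1 of the 86 members was higher and 0 lower (1.16%, edgeR), against 14.8% of all genes called in either direction, 7.39% called higher and 7.43% called lower. At an unadjusted p below 0.05 there were 20 members, against 26.6% of all genes. DESeq2 called 6 members, and 2812 of all 15028 genes in either direction. The median log2 fold change was 0.20 over the members and -0.01 over all genes, and 79 of 86 values were above 0. The fold change farthest from 0 was that of Rpl39l (1.56 ± 1.42, SE, adjusted p = 0.564, edgeR), a gene of few counts. The members' median was 0.11 without vehicle library 1, 0.11 without vehicle library 3, 0.13 without ADM2 library 1 and 0.30 without vehicle library 2. In 6 members the ADM2 libraries lay wholly above the vehicle libraries (16% of all genes did so) and in 1 wholly below (16.7%).

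The 1 call was Rplp1 (Entrez Gene 56040, chr9:61913283-61914510). It had 3932, 3170 and 3321 CPM with ADM2, against 2247, 2943 and 2249 CPM with vehicle. Every ADM2 library lay above every vehicle library, by a small margin over vehicle library 2. The log2 fold change was 0.49 ± 0.14 (SE, adjusted p = 0.0267, edgeR), and the adjusted p ran from 0.00388 to 0.153 over 22 alternatives. The call was lost without vehicle library 1, without vehicle library 3, without ADM2 library 1 and without ADM2 library 3. The count of higher members was 15 without vehicle library 2, 3 without IL-25 library 1 and 0 without any of those 4. Of all genes, 14%, 17.1% and 11.1% to 11.6% were called in either direction in these fits, in that order.

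The paralogs did not share 1 direction. Rpl22l1 (Entrez Gene 68028, chr3:28805508-28807424), the paralog of Rpl22, had 126, 107 and 105 CPM with ADM2, against 70.9, 99.8 and 77.8 CPM with vehicle. The groups did not overlap, but the log2 fold change of 0.44 ± 0.17 had an adjusted p of 0.0944 (edgeR). Rpl7l1 had 153, 138 and 142 CPM with ADM2, against 158, 185 and 162 CPM with vehicle, with no overlap and a log2 fold change of -0.22 ± 0.09 (adjusted p = 0.145, edgeR). Rps27l, with a log2 fold change of -0.16 ± 0.13 (adjusted p = 0.503), and Rpl36al, with 0.11 ± 0.14 (adjusted p = 0.731), were not called. Of the abundant genes, Rplp0 stood at 0.23 (adjusted p = 0.173), Rpsa at 0.23 (adjusted p = 0.293), Rpl8 at 0.18 (adjusted p = 0.441) and Rpl4 at 0.12 (adjusted p = 0.491). Rps6 stood at 0.29 (adjusted p = 0.112), Rpl5 at 0.23 (adjusted p = 0.253), Rps4x at 0.19 (adjusted p = 0.396) and Rpl11 at 0.11 (adjusted p = 0.698).

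IL-25 plus ADM2 against IL-25 asks the same in cells given IL-25. Here 0 members were higher and 1 lower (1.16%, edgeR), against 14.6% of all genes called in either direction, 6.53% called higher and 8.1% called lower. At an unadjusted p below 0.05 there were 5 members, against 27.1% of all genes. DESeq2 called 2 members higher and 2 lower, and 2790 of all 15028 genes in either direction. The median log2 fold change was 0.09 over the members and -0.01 over all genes. It rested on single libraries: the members' median was -0.08 without IL-25 plus ADM2 library 3, 0.24 without IL-25 plus ADM2 library 2, 0.21 without IL-25 library 1 and 0.01 without IL-25 library 2. In 5 members the IL-25 plus ADM2 libraries lay wholly above those with IL-25 (18.9% of all genes) and in 2 wholly below (20.5%).

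The gene that fell was Rpl7l1. It had 187 and 216 CPM with IL-25 plus ADM2, against 274, 259 and 272 CPM with IL-25, so the libraries with both agents lay below those with IL-25 and above those with vehicle. The log2 fold change was -0.42 ± 0.11 (SE, adjusted p = 0.0155, edgeR), with an adjusted p of 0.00136 to 0.194 over 22 alternatives and no call without IL-25 plus ADM2 library 2 or with only the groups compared. Without vehicle library 2 there were 1 higher and 2 lower members, without IL-25 library 1 there were 1 and 1, and without IL-25 library 2 there were 0 and 2. Of all genes, 15.2%, 14% and 13.2% were called in either direction in these fits, in that order. Rps27l had 71.0 and 84.1 CPM with IL-25 plus ADM2, against 112, 96.6 and 111 CPM with IL-25. Its groups did not overlap either, and the log2 fold change of -0.46 ± 0.15 had an adjusted p of 0.0504 (edgeR), which ran from 0.0198 to 0.324 over the alternatives. Rplp1 had 2894 and 3728 CPM with both agents, against 3027, 2190 and 2365 CPM with IL-25, an overlap of 1 library (0.39 ± 0.15, adjusted p = 0.11, edgeR). Rpl22l1 stood at 0.40 ± 0.18 (adjusted p = 0.179).

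With both agents against vehicle, 38 of the 86 members were higher and 0 lower (44.2%, edgeR), against 20.2% of all genes called in either direction, 10.6% called higher and 9.64% called lower. At an unadjusted p below 0.05 there were 65 members, against 32.1% of all genes. The median log2 fold change was 0.40 over the members and -0.02 over all genes, and all 86 values were above 0. In 46 members the IL-25 plus ADM2 libraries lay wholly above the vehicle libraries (53.5%), as they did in 23.2% of all genes. By subunit, 21 of 43 standard genes of the 60S subunit (median 0.39), 15 of 31 of the 40S subunit (median 0.42) and 1 of 3 of the stalk (median 0.41) rose. This comparison shares its vehicle libraries with the IL-25 and the ADM2 comparisons.

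Among the called members the largest increase was that of Rpl22l1, with 109 and 158 CPM with IL-25 plus ADM2, against 70.9, 99.8 and 77.8 CPM with vehicle (0.69 ± 0.18, SE, adjusted p = 0.0146, edgeR). Rps14, of the platform of the small subunit and known from the 5q- syndrome in humans, had 1035 and 1537 CPM with both agents, against 709, 973 and 792 CPM with vehicle (0.64 ± 0.17, adjusted p = 0.016, edgeR). In both genes each library with both agents lay above every vehicle library, and library 3 far more so than library 2. Rpl9 stood at 0.58 (adjusted p = 0.0116), Rps27a, made as a fusion with ubiquitin, at 0.54 (adjusted p = 0.0275), and Rps3, at the entry of the mRNA channel, at 0.53 (adjusted p = 0.0267). Rps26, Rpl34, Rps27, Rps7 and Rps10 followed, with log2 fold changes of 0.52, 0.51, 0.50, 0.50 and 0.50. Rplp0 at 0.41 (adjusted p = 0.0212), Rps6 at 0.42 (adjusted p = 0.0312) and Rpl5 at 0.40 (adjusted p = 0.0471) were called. Rplp1 at 0.42 (adjusted p = 0.0687), Rpl4 at 0.31 (adjusted p = 0.0553), Rpsa and Rpl8 at 0.37 each (adjusted p = 0.0845 and 0.0848), Rpl11 at 0.31 (adjusted p = 0.162), Rpl7l1 at 0.26 (adjusted p = 0.0984), Rps27l at 0.25 (adjusted p = 0.27) and Rps4x at 0.17 (adjusted p = 0.468) were not.

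The count of 38 also rested on single libraries. It was 72 without vehicle library 2, 1 without vehicle library 1 and 1 without vehicle library 3. Of all genes, 20.2%, 14.8% and 14.9% were called in either direction in these fits, in that order. With total counts in place of TMM factors the count of members was 0, against 28.6% of all genes. The median over all genes then lay at -0.29. The members stood 0.42 above the median of all genes under both scalings, and between 0.27 (without IL-25 plus ADM2 library 3) and 0.61 (without IL-25 plus ADM2 library 2) above it when 1 library was left out. Short genes that are not members had a median of 0.19 in this comparison and longer genes 0.02.

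Whether the effect of ADM2 differed with and without IL-25 was tested directly. At an adjusted p below 0.05, 0 members were called in either direction (edgeR), against 0.0333% of all genes (5 genes, 0.0133% higher and 0.02% lower). DESeq2 and limma voom also called 0 members. At an unadjusted p below 0.05 there were 0 members and 6.84% of all genes. The median difference was -0.12 over the members, with a median SE of 0.19.

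**Figure D4:**
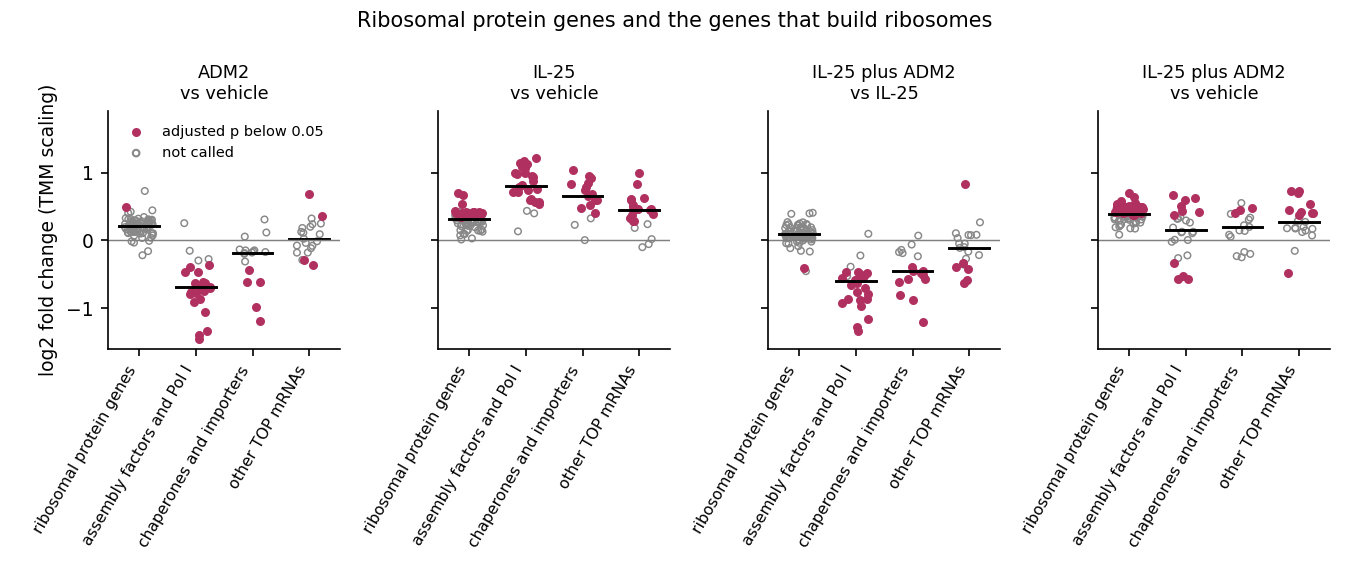
Log2 fold changes (TMM scaling) of 81 ribosomal protein genes with a mean of at least 2 CPM and of 3 lists of related genes in 4 comparisons; filled points have an adjusted p below 0.05 and bars are medians. The ribosomal protein genes lie in a narrow band around medians of 0.20 to 0.40 against vehicle and near 0.09 for IL-25 plus ADM2 against IL-25, while the assembly factors have medians of -0.69 with ADM2, 0.80 with IL-25 and -0.61 with IL-25 plus ADM2 against IL-25.

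Because the standard genes of a library moved together, members were also compared with library factors taken from the members themselves, an alternative chosen after seeing the data. On that scale a log2 fold change says how a gene moved relative to the other ribosomal protein genes. With ADM2 against vehicle, 1 member was then higher and 1 lower, against 2.14% and 8.77% of all genes, with IL-25 against vehicle 1 and 1 (2.56% and 14.7%), with IL-25 plus ADM2 against IL-25 1 and 2 (2.20% and 4.38%), and with both agents against vehicle 0 and 0 (2.57% and 19.1%). The test of whether the ADM2 effect differed then called 0 and 0 members (0.00665% and 0% of all genes). The members called on this scale were 3 genes, Rplp1, Rps27l and Rpl7l1. They were chosen here by these calls, and a gene without a call was not shown to keep the common course. Rpl22l1 had a log2 fold change of 0.23 with ADM2, 0.28 with both agents and -0.02 with IL-25, each against vehicle. Rpl35 had 0.22 with IL-25, -0.10 with ADM2 and -0.02 with both agents, each against vehicle. With IL-25 plus ADM2 against IL-25, Rpl22l1 had 0.30 and Rpl35 -0.24. None of these was called (adjusted p of at least 0.115, edgeR).

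Rplp1 stood 1.99 and 2.04 above its library's median of the 77 genes (log2 CPM) with IL-25 plus ADM2, 1.82, 1.72 and 1.63 with IL-25, 2.37, 2.25 and 2.30 with ADM2, and 1.98, 2.03 and 1.98 with vehicle. The ADM2 libraries lay above all others and the IL-25 libraries below all others. With both agents, library 2 lay among the vehicle libraries and library 3 just above them. On the scale of the member factors its log2 fold change was 0.27 ± 0.07 with ADM2 against vehicle (SE, adjusted p = 0.0208), -0.29 ± 0.07 with IL-25 against vehicle (adjusted p = 0.0111) and 0.30 ± 0.07 with IL-25 plus ADM2 against IL-25 (adjusted p = 0.0305, all edgeR).

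Rps27l took the opposite course. Relative to the same median it stood at -3.35 and -3.43 with IL-25 plus ADM2, -2.94, -2.78 and -2.78 with IL-25, -3.55, -3.57 and -3.58 with ADM2, and -3.35, -3.19 and -3.19 with vehicle. The IL-25 libraries lay above all others and the ADM2 libraries below all others. The log2 fold change on the scale of the member factors was 0.40 ± 0.12 with IL-25 against vehicle (SE, adjusted p = 0.0364), -0.55 ± 0.13 with IL-25 plus ADM2 against IL-25 (adjusted p = 0.0303) and -0.37 ± 0.12 with ADM2 against vehicle (adjusted p = 0.0653, all edgeR).

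Rpl7l1 followed the order of Rps27l. It stood at -1.96 and -2.07 with IL-25 plus ADM2, -1.64, -1.36 and -1.48 with IL-25, -2.31, -2.26 and -2.24 with ADM2, and -1.84, -1.96 and -1.81 with vehicle. Its log2 fold change on the scale of the member factors was -0.44 ± 0.12 with ADM2 against vehicle (SE, adjusted p = 0.0336), -0.51 ± 0.13 with IL-25 plus ADM2 against IL-25 (adjusted p = 0.0412) and 0.36 ± 0.12 with IL-25 against vehicle (adjusted p = 0.0534, all edgeR). Rps27, the standard form of which Rps27l is the paralog, went with Rplp1 in direction: its values were -0.51 and -0.35 with IL-25 plus ADM2, -0.74, -0.73 and -0.70 with IL-25, -0.38, -0.43 and -0.37 with ADM2, and -0.54, -0.47 and -0.59 with vehicle. This course was not particular to Rps27. In the standard genes Rps16 and Rps20, too, the ADM2 libraries lay above those with vehicle. Their IL-25 libraries lay below those with vehicle and below those with both agents. None of the differences of Rps27 on the scale of the member factors was called. The nearest was 0.31 ± 0.10 with IL-25 plus ADM2 against IL-25 (SE, adjusted p = 0.11, edgeR).

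**Figure D5:**
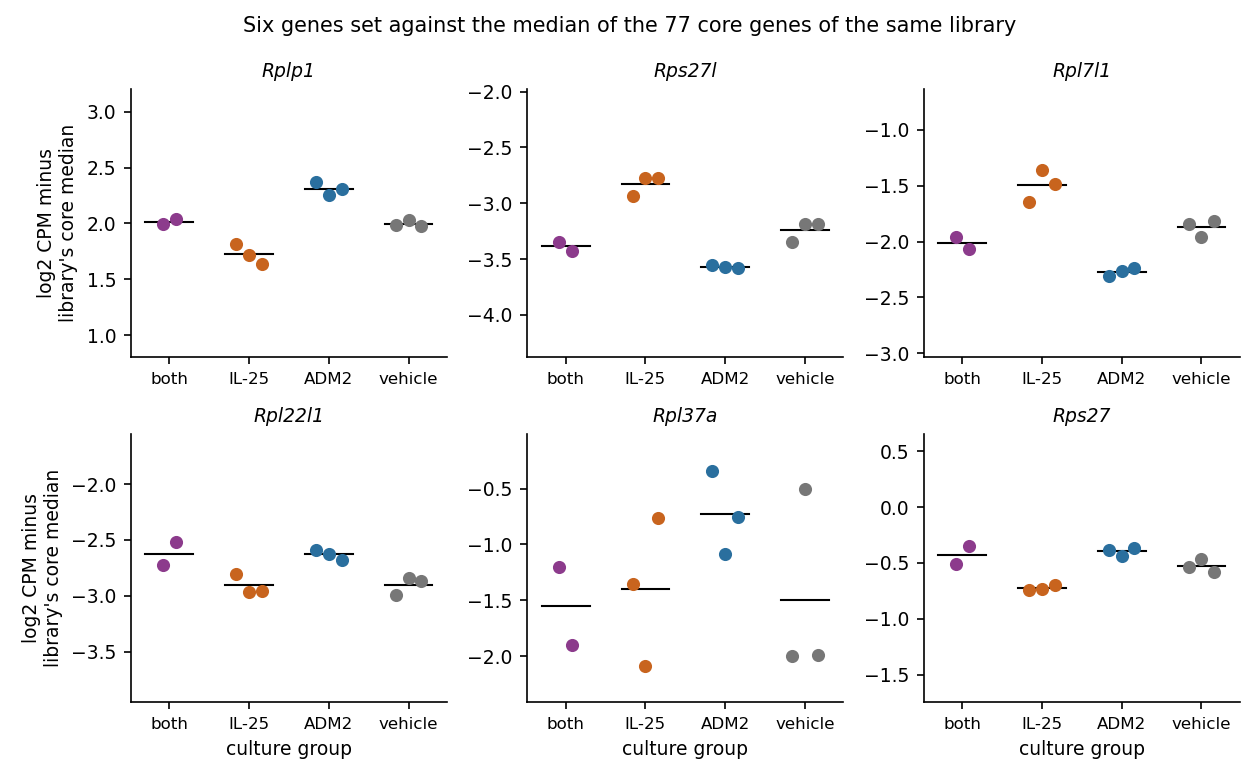
Level of 6 genes in each library, as log2 CPM minus the median of the 77 core genes of that library, by culture group ("both" is IL-25 plus ADM2); lines are group means and every panel spans the same height. Rplp1 is highest with ADM2 and lowest with IL-25, Rps27l and Rpl7l1 are highest with IL-25 and lowest with ADM2, and Rpl37a spreads over all groups.

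Rpl37a (Entrez Gene 19981, chr1:72711260-72713813), which encodes a zinc-binding protein of the large subunit, varied without regard to group. It had 316 and 243 CPM with IL-25 plus ADM2, 335, 156 and 449 CPM with IL-25, 598, 313 and 399 CPM with ADM2, and 142, 507 and 143 CPM with vehicle. The highest library had 4.23 times the CPM of the lowest, and the vehicle libraries alone spanned most of that range. Its SD within groups was 0.64 on the log2 scale relative to the library's median, the highest of the core genes. No comparison called it, with adjusted p from 0.33 to 0.937 in the 4 comparisons of groups.

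The genes that serve ribosomal proteins were taken from lists, described by counts of calls under the same fit. Of all genes, 7.39% were called higher and 7.43% lower with ADM2 against vehicle, and 13% and 10.4% with IL-25 against vehicle. With IL-25 plus ADM2 against IL-25 they were 6.53% and 8.1%, and with both agents against vehicle 10.6% and 9.64%. These shares are the background for every list below. Of 26 assembly factors and RNA polymerase I subunits, which build ribosomal subunits in the nucleolus, 0 rose and 22 fell with ADM2 against vehicle (median log2 fold change -0.69). With IL-25 against vehicle 23 rose and 0 fell (median 0.80). With IL-25 plus ADM2 against IL-25, 0 rose and 22 fell (median -0.61), and with both agents against vehicle 7 rose and 4 fell (median 0.16, and -0.11 with total counts in place of TMM factors). In the first 3 comparisons the members' own medians were 0.20, 0.31 and 0.09. Over the other settings with library factors from all genes, the falls with ADM2 numbered 20 to 24, the rises with IL-25 21 to 25, and the falls with both agents against IL-25 18 to 23. With both agents against vehicle, 2 rose and 0 fell without IL-25 plus ADM2 library 3, 4 rose and 2 fell without vehicle library 1, and 2 fell without IL-25 plus ADM2 library 2.

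Dkc1, the pseudouridine synthase of rRNA, averaged 60.9 ± 6.15 CPM with ADM2 and 154 ± 12.4 CPM with vehicle (SD, n = 3 each), a log2 fold change of -1.34 ± 0.11. Polr1b, the second largest subunit of RNA polymerase I, averaged 37.4 ± 2.21 CPM with ADM2 and 98.8 ± 6.84 CPM with vehicle (log2 fold change -1.40 ± 0.12), and Rrp12, which is needed for export of both subunits in yeast, 42.1 ± 7.35 CPM with ADM2 and 116 ± 5.26 CPM with vehicle (-1.46 ± 0.13). With IL-25, Nop58, a core protein of box C/D snoRNPs, averaged 493 ± 18.3 CPM, against 236 ± 14.7 CPM with vehicle (log2 fold change 1.06 ± 0.09). Rrp9 (1.21 ± 0.10) and Wdr43 (1.13 ± 0.09), proteins of the small subunit processome, rose likewise. With IL-25 plus ADM2 against IL-25 the smallest p-values were those of Rrp12 (-1.33 ± 0.15), Wdr12 (-1.17 ± 0.13), a factor of large subunit maturation, and Polr1a (-1.28 ± 0.15), the largest subunit of RNA polymerase I. With both agents against vehicle they were those of Nop56 (0.59 ± 0.11), Nop58 (0.51 ± 0.10) and Mrto4 (0.67 ± 0.14). All of these had an adjusted p below 0.05 in edgeR's test.

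Chaperones and importers that carry ribosomal proteins to the nucleolus went the same way, in fewer genes. Of 17, 0 rose and 5 fell with ADM2 against vehicle, 14 rose and 0 fell with IL-25 against vehicle, 0 rose and 11 fell with IL-25 plus ADM2 against IL-25, and 3 rose and 0 fell with both agents against vehicle (0 rose and 4 fell with total counts). The 11 falls were 5 without IL-25 plus ADM2 library 2 or 3 and 7 without vehicle library 3 or IL-25 library 1. The 3 rises were 0 without vehicle library 1, vehicle library 3 or IL-25 plus ADM2 library 3, 5 without IL-25 library 1 and 6 without vehicle library 2. Heatr3, the adaptor that brings Rpl5 and Rpl11 into the nucleus, averaged 29.8 ± 3.44 CPM with ADM2 and 67.9 ± 2.93 CPM with vehicle (log2 fold change -1.19 ± 0.12, adjusted p = 4.07e-06, edgeR). It averaged 60.2 ± 5.57 CPM with IL-25 plus ADM2 (n = 2) and 139 ± 14.9 CPM with IL-25 (n = 3; -1.20 ± 0.13, adjusted p = 2.18e-05, edgeR). Its cargo genes Rpl5 and Rpl11 were not called in either comparison. Grwd1, the chaperone of Rpl3, had log2 fold changes of -0.99 ± 0.10 with ADM2, 0.95 ± 0.10 with IL-25 and -0.80 ± 0.12 with IL-25 plus ADM2 against IL-25, and the importin Ipo5 -0.62 ± 0.09, 0.68 ± 0.09 and -0.88 ± 0.10, each with an adjusted p below 0.05.

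Other mRNAs known to carry a TOP motif numbered 21, of which Npm1 is also among the assembly factors. With ADM2 against vehicle 2 rose and 2 fell, with IL-25 against vehicle 16 rose and 0 fell, with IL-25 plus ADM2 against IL-25 1 rose and 5 fell, and with both agents against vehicle 9 rose and 1 fell. In these comparisons, in that order, 14.8%, 23.3%, 14.6% and 20.2% of all genes were called in either direction. The 16 rises with IL-25 were 8 without vehicle library 1, 7 without vehicle library 3 and 6 with total counts. The 9 rises with both agents were 4 and 5 without vehicle libraries 1 and 3, 2 without IL-25 plus ADM2 library 3 and 1 with total counts. Over all these settings the falls numbered 0 to 5 with ADM2 and 1 to 6 with IL-25 plus ADM2 against IL-25. Npm1, the nucleolar chaperone nucleophosmin, averaged 1249 ± 122 CPM with IL-25 and 626 ± 89.3 CPM with vehicle (SD, n = 3 each; log2 fold change 1.00 ± 0.11), and -0.58 ± 0.12 with IL-25 plus ADM2 against IL-25. Tpt1, the translationally controlled tumor protein (0.36 ± 0.09), and the snoRNA host gene Snhg8 (0.68 ± 0.20) rose with ADM2 against vehicle, and Eif4b, a helicase cofactor of translation initiation, fell (-0.28 ± 0.08). Of 3 standard ribosomal proteins under other symbols, 2 rose and 0 fell with both agents against vehicle. Fau, made as a fusion with a ubiquitin-like protein, was among those that rose (0.50 ± 0.15, adjusted p = 0.0298, edgeR). Rack1 did not pass there (0.40 ± 0.15, adjusted p = 0.0861). Neither passed in the other comparisons.

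Of 21 regulators of TOP mRNAs and mTORC1, 3 rose and 3 fell with ADM2 against vehicle, 6 rose and 1 fell with IL-25 against vehicle, 1 rose and 4 fell with IL-25 plus ADM2 against IL-25, and 6 rose and 2 fell with both agents against vehicle. Over the other settings, single libraries left out included, the rises numbered 1 to 4, 3 to 7, 0 to 1 and 0 to 7 and the falls 2 to 5, 1 to 2, 2 to 4 and 0 to 7 in these comparisons. Larp4, an mRNA-binding protein that protects poly(A) tails, averaged 287 ± 5.44 CPM with IL-25, 95.6 ± 8.79 CPM with ADM2 and 130 ± 4.29 CPM with vehicle (SD, n = 3 each). Against vehicle its log2 fold change was 1.14 ± 0.09 with IL-25 and -0.45 ± 0.09 with ADM2. Akt1s1, an inhibitory subunit of mTORC1, had a log2 fold change of -0.74 ± 0.10 and Ddit4, an mTORC1 inhibitor induced by stress, 0.57 ± 0.12 with ADM2 against vehicle. The translation repressor Eif4ebp1 had -0.79 ± 0.15 with IL-25 plus ADM2 against IL-25. These had adjusted p-values below 0.05 in edgeR's test.

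Of 14 genes of the MYC network, 3 rose and 1 fell with ADM2 against vehicle, 6 rose and 1 fell with IL-25 against vehicle, 3 rose and 2 fell with IL-25 plus ADM2 against IL-25, and 5 rose and 1 fell with both agents against vehicle. In these comparisons, in that order, 14.8%, 23.3%, 14.6% and 20.2% of all genes were called in either direction. The 6 rises with IL-25 were 3 without vehicle library 1 or 3 and 2 with total counts. The gene that fell with ADM2 was Myc itself (-0.46 ± 0.09, adjusted p = 0.00187, edgeR). Myc averaged 707 ± 77.2 CPM with IL-25 and 261 ± 4.80 CPM with vehicle (SD, n = 3 each; log2 fold change 1.44 ± 0.09, adjusted p = 6.64e-08, edgeR). With ADM2 against vehicle the smallest p-values were those of Mycn (1.77 ± 0.12) and of Mxd1 (1.16 ± 0.13) and Mxi1 (1.15 ± 0.08), which compete with MYC for MAX. Of 11 genes for quality control and degradation of ribosomal proteins, 1 rose and 2 fell with ADM2 against vehicle, 6 rose and 0 fell with IL-25 against vehicle, 1 rose and 1 fell with IL-25 plus ADM2 against IL-25, and 2 rose and 0 fell with both agents against vehicle. The shares of all genes called in these comparisons are those given above. The 6 rises with IL-25 were 3 without vehicle library 1 or 3 and 1 with total counts. Among them Zfp598, the ubiquitin ligase that senses collided ribosomes, rose with IL-25 (0.46 ± 0.11, adjusted p = 0.00586), and Nufip1, a receptor for the removal of ribosomes by autophagy that is also in the list of chaperones, rose with IL-25 (0.66 ± 0.13) and fell with ADM2 (-0.43 ± 0.13, adjusted p = 0.0408, edgeR).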

How the data were processed

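Read counts of 11 RNA-seq libraries were used as the authors deposited them: whole numbers for 27179 genes, labelled with Entrez Gene IDs. The submitters' processing notes name mm10 as the build and limma and featureCounts as tools, with no versions. Aligner, annotation, strand setting and treatment of multiply matching reads: not given in the sources used here. Annotated pseudogenes of these families, 36 in the table, held 0.153% to 0.169% of the members' counts, and 44 members overlap another annotated gene (13 a protein-coding one, 30 a snoRNA gene), with which they may share reads. Groups came from sample titles. IL-25 plus ADM2 replicate 1 was not analysed here.

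Symbols, positions and promoters came from RefSeq tables of GRCm38.p6 (25275 IDs matched, 1904 not), transcript lengths from a mouse annotation of that assembly. The test was edgeR 4.0.16 under R 4.3.3: TMM, filterByExpr with a minimum count of 10, 15028 genes, 1 mean per group over all libraries, quasi-likelihood F test, Benjamini-Hochberg, called below 0.05. SEs were derived as log2 fold change over the root of F and are approximate. Log2 levels add 0.5 to the CPM. The test was checked on simulated data. Alternatives were DESeq2 1.42.0, limma 3.58.1 (voom), other scalings and filters, only the groups compared, a replicate block and each library left out. Pairs of libraries of a group differed by more than counting noise (chi-square per degree of freedom 16.6 or more).

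Members and lists were chosen with earlier results of these data known. Named were, per comparison, at most the 10 highest and 10 lowest called members, all paralogs, Rps4x, the 5 most and 5 least abundant, Rpl5, Rpl11, Rps6, Rplp0 and Rpsa, and the 3 genes of smallest p per list. Rplp2, Rpl37a, Rps16, Rps20, Rps27 outside the comparison of both agents with vehicle, and Myc with ADM2 were named after their values were seen. So was Rpl35 outside the comparison of IL-25 with vehicle. Some genes the rule would name are not reported here.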

Additional observations from a re-analysis of the deposited data

How the results depend on the processing

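The count of members called depended on scaling, test and single libraries. The members' distance from the median of all genes moved little with scaling and test but did move with single libraries. With all libraries it was 0.21 to 0.22 (ADM2 against vehicle), 0.30 to 0.32 (IL-25 against vehicle), 0.09 to 0.13 (IL-25 plus ADM2 against IL-25) and 0.39 to 0.46 (both against vehicle) on the log2 scale. With 1 library left out it was 0.14 to 0.34, 0.20 to 0.44, -0.06 (without IL-25 plus ADM2 library 3) to 0.28 (without IL-25 plus ADM2 library 2), and 0.27 to 0.61. In that order of comparisons, members higher and lower were 6 and 0, 38 and 0, 2 and 2, and 61 and 0 with DESeq2; 1 and 0, 30 and 0, 0 and 2, and 43 and 0 with limma voom; 0 and 1, 2 and 0, 0 and 2, and 0 and 0 with total counts; 1 and 0, 6 and 0, 0 and 1, and 38 and 0 with upper-quartile scaling; 4 and 0, 37 and 0, 1 and 2, and 52 and 0 with no filter; 1 and 0, 29 and 0, 0 and 2, and 40 and 0 with a minimum count of 30; 6 and 0, 8 and 0, 0 and 0, and 26 and 0 with only the groups compared; and 1 and 1, 1 and 1, 1 and 2, and 0 and 0 with factors from the members, chosen after seeing the data. With a replicate block they were 1 and 0, 10 and 0, 0 and 0, and 21 and 0. Of all 15028 genes, DESeq2 called 2812, 4055, 2790 and 3770 in either direction, against 2227, 3503, 2198 and 3042 in the main fit. The shares of all genes tested were 16.1%, 23.8%, 14.7% and 20.7% with limma voom and 18.4%, 27.2%, 15.4% and 28.6% with total counts. They were 14.9%, 23.3%, 14.3% and 20.3% with upper-quartile scaling and 12.3%, 18.8%, 12.3% and 16.6% with no filter. A minimum count of 30 gave 18.3%, 28.5%, 18.1% and 24.9%, and only the groups compared 18.3%, 23.3%, 10.6% and 21.3%. Factors from the members gave 10.9%, 17.3%, 6.57% and 21.7%, and the replicate block 12.3%, 20.3%, 11% and 16.3%. The labels state no pairing by replicate number. Deviations from the group mean in same-numbered libraries of different groups had correlations of -0.15 to 0.12 over 15 pairs. With 2 or 3 libraries a group these cannot settle whether the numbers pair the samples. Leaving out 1 library of the vehicle, ADM2 or IL-25 group, the counts of higher members ran from 0 to 15, 3 to 56, 0 to 1 and 1 to 72. Those of lower members ran from 0 to 0, 0 to 0, 1 to 2 and 0 to 0. The share of all genes called in either direction ran from 11.1% to 17.1%, 16.9% to 22.8%, 11.8% to 15.2% and 14.8% to 23%. In the comparison of IL-25 plus ADM2 with IL-25, Rpl7l1 was no longer called without IL-25 plus ADM2 library 2, with only the groups compared or with the replicate block. The difference of the ADM2 effect called 0 members in every setting run.

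The share of all calls that were higher was 55.6% with TMM, 44.6% with upper-quartile scaling and 22.5% with total counts for IL-25 against vehicle, 49.9% and 27.5% (TMM and total counts) for ADM2 against vehicle, 44.6%, 57.4% and 37.9% with TMM, upper-quartile scaling and total counts for IL-25 plus ADM2 against IL-25, and 52.4% and 18.4% (TMM and total counts) for both agents against vehicle. Relative to the members Rplp1 reversed to -0.29 with IL-25 against vehicle, and Rpl5 to -0.0066 with both agents against vehicle, which follows from moving the zero to the members' own level. For single named genes, 1882 alternative values kept direction and call, 157 lost the call, 57 gained it and 2 reversed. Genes with few counts, such as Rpl39 with 6 to 16, gave no detectable change at this depth. With 2 or 3 libraries a group, the median SE of a member's log2 fold change was 0.13 against vehicle for either agent alone and 0.14 with both.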

Other observations

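Relatives of the members that the naming rule leaves out gave some further values. Of the 10 genes with an Rps6k symbol, Rps6ka4 (the kinase MSK2) averaged 44.8 ± 4.44 CPM with IL-25 plus ADM2 (SD, n = 2), 54.1 ± 3.07 CPM with IL-25, 78.9 ± 3.33 CPM with ADM2 and 78.3 ± 6.56 CPM with vehicle (SD, n = 3 each). It fell with IL-25 against vehicle (log2 fold change -0.53 ± 0.10, SE, adjusted p = 0.00143, edgeR) and with both agents against vehicle (-0.81 ± 0.12, adjusted p = 0.000167). Rps6ka1 (RSK1) fell in the same comparisons (-0.41 ± 0.13, adjusted p = 0.0347, and -0.46 ± 0.15, adjusted p = 0.0384, edgeR). Rps6kb1, the main kinase of Rps6 under mTORC1, was not called in any comparison, with log2 fold changes of 0.27 ± 0.10 with IL-25 (adjusted p = 0.0789) and -0.08 ± 0.10 with ADM2 (adjusted p = 0.735). Rps19bp1, a nucleolar binding partner of Rps19, rose with IL-25 against vehicle (0.66 ± 0.15, adjusted p = 0.00408, edgeR). These genes were chosen after their values were seen.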
